A study of Mus musculus with 2 samples.

Results

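Pseudogenes are copies or remnants of genes that are annotated as unable to make the original protein. This account covers the 142 annotated mouse pseudogenes on chromosomes 1 to 19 that carried at least 10 long reads, summed over 2 libraries of skeletal muscle. The members were chosen by annotated type, which had to hold the word pseudogene, and selected on their summed reads in these same libraries. They came from 11594 pseudogenes annotated on these chromosomes, of which 559 had at least 1 read and 417 had 1 to 9 reads. Their read levels are therefore given as a description and carry no test.

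The libraries were made for long-read RNA sequencing from the gastrocnemius, a large muscle of the calf, of female mice of the hybrid strain B6CASTF1/J at 2 months of age. Animal 3 gave replicate 1 and animal 4 gave replicate 2, with 2 µg of starting RNA each. Both libraries belong to 1 group, the mice carried no treatment in the labels, and the labels give both the same donor identifier although the animal numbers differ. Replicate 1 held 1349298 reads and replicate 2 held 1359923, counted by transcript model, a model being 1 exon structure. Summed reads of fast muscle fibre markers were 403115 and 399716, with all 9 listed genes present, so the libraries matched the labelled tissue. Slow fibre markers summed to 1596 and 11735 reads and nerve and Schwann cell markers to 919 and 132. Their part in the differences between the libraries given below was not tested. All tests compare these 2 libraries by counting error only, and no difference has a replicate check.

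Pseudogenes arise in several ways. A processed pseudogene is a messenger RNA that was copied back into DNA and inserted elsewhere, so it lacks the introns of its parent gene. An unprocessed pseudogene is a duplicated or transferred piece of DNA that keeps its gene structure, and a unitary pseudogene is a former gene with no working counterpart left in the genome. The prefix "transcribed" in the annotation marks pseudogenes with annotated evidence of transcription. Young processed copies can be nearly identical to their parents, and a read from one can then be hard to tell from a read of the other. How reads that match several near-identical places were assigned is not given in the sources used here, so the counts of near-identical copies and of their parents are uncertain.

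The copies of Gapdh show how close these sequences are. Gapdh encodes the glycolytic enzyme glyceraldehyde-3-phosphate dehydrogenase. The pseudogene Gm12671 (mm10 chr4:91851668-91852669, minus strand) matched the Gapdh coding sequence over all 1002 of its bases without a difference. The stretch below, chr4:91852131-91852170 on the minus strand, spans bases 500 to 539 of that coding sequence, and the capitals mark the bases on either side of a junction between Gapdh exons. In the copy these bases are contiguous in the genome. The identical stretch lies in Gm10359 at chr5:105863164-105863203 on the minus strand. All sequences here are read 5′ to 3′ from the transcripts of the GENCODE M21 reference on mm10. Identities and substitutions throughout are those of this reference, and whether the alleles of these hybrid mice match it was not tested.

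Gm12671 over a Gapdh exon junction: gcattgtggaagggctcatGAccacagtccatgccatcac

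Of the other Gapdh copies among the members, 4 differed from the parent by 1 substitution each. They are printed below with the parent stretch, and the capital marks the differing base. Substitutions are written with the parent base first, the position counted from 1 at the first base of the Gapdh coding sequence, then the base of the copy. The copies are T504C in Gm12033 (chr11:20335490-20335530, minus strand), T385A in Gm5559 (chr5:95862078-95862118, plus strand), A346C in Gm13394 (chr2:28934244-28934284, minus strand) and C583T in Gm2606 (chr15:12575451-12575491, plus strand).
Gm12033: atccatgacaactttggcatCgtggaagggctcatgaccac
Gapdh at the same place: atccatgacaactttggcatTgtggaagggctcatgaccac
Gm5559: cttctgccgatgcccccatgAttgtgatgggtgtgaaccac
Gapdh at the same place: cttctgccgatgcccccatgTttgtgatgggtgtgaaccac
Gm13394: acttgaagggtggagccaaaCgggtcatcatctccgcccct
Gapdh at the same place: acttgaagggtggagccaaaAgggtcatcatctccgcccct
Gm2606: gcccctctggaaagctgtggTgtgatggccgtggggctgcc
Gapdh at the same place: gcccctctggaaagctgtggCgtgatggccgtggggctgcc

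A shorter complete copy is Gm12338 (chr11:75599763-75599954, minus strand), which lies antisense to an intron of Pitpna. Its whole annotated length of 192 bases equals the coding sequence of Cox7c, a subunit of cytochrome c oxidase, with no difference. The capitals mark the start and stop codons.
Gm12338: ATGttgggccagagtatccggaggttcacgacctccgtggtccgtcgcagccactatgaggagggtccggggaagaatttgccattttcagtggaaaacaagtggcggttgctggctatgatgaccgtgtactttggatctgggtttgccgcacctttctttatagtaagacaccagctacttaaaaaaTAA

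Shown next, with the same marks, are the copies with 1 substitution whose share of the reads of copy and parent differed between the libraries. Gm10774 carries G82A relative to the coding sequence of Polr2l, a small subunit of RNA polymerase II, at chr2:126709456-126709496 on the minus strand. Gm6563 carries G288A relative to that of Sarnp, a protein that acts in messenger RNA export, at chr19:23676115-23676155 on the plus strand. Both windows differ from the parent in the capital base alone.
Gm10774: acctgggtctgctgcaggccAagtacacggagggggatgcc
Polr2l at the same place: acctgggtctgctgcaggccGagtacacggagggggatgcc
Gm6563: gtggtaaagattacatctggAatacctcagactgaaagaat
Sarnp at the same place: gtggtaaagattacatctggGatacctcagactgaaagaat

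Reads on the 142 members made up 0.899% of replicate 1 (12126 reads, 95% Wilson interval 0.883% to 0.915%) and 0.788% of replicate 2 (10713 reads, 0.773% to 0.803%). The mean share was 0.843% ± 0.0784 (SD, n = 2). The reads were concentrated: the 5 members with the most reads held 51.2% and 43.1% of all member reads, and the 10 with the most held 62.3% and 56.4%. The median member had 42.5 reads summed. At least 100 reads were carried by 41 members, and 35 had 10 to 19. Each of the 142 members had a read in both libraries. Just inside the minimum, with 10 reads summed, stood A930035D04Rik (8 and 2 reads), Gm14038 (7 and 3) and Gm18867 (7 and 3). Just outside, with 9 reads, stood Ppp4r1l-ps (5 and 4), Rpl35a-ps6 (3 and 6) and Rps16-ps2 (5 and 4). Here and below, a pair of read numbers gives replicate 1 first.

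**Figure D1:**
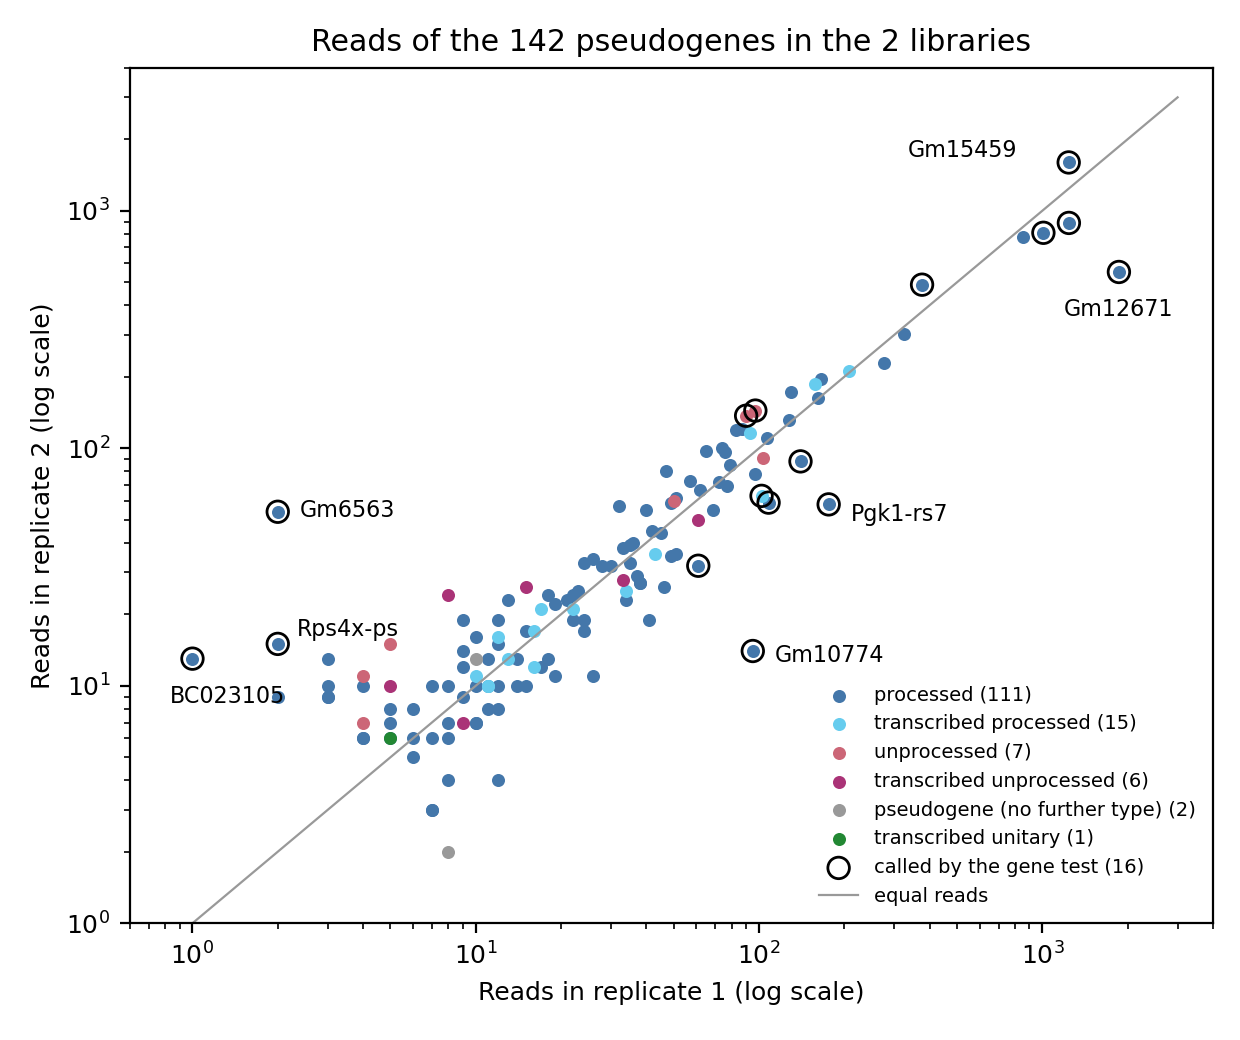
Reads of each of the 142 pseudogenes in replicate 1 (x axis) and replicate 2 (y axis), both on log scales, coloured by annotated type. Circles mark the 16 genes called by the gene test, among them Gm12671 at 1862 and 552 reads and Gm6563 at 2 and 54, and the line marks equal reads.

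Processed pseudogenes dominated the set. They were 111 of the 142 members and held 10855 and 9314 reads, or 89.5% and 86.9% of the member reads. Another 15 members were transcribed processed pseudogenes, with 764 and 768 reads. Unprocessed pseudogenes gave 7 members with 353 and 465 reads, and transcribed unprocessed ones gave 6 members with 131 and 145. The plain type "pseudogene" gave 2 members with 18 and 15 reads, and the transcribed unitary type gave 1, Thap6, with 5 and 6 reads.

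The share of annotated genes that was seen ran differently over these types. Of 8924 processed pseudogenes annotated on these chromosomes, 4.91% had a read and 1.24% became members. Of 269 transcribed processed ones, 17.1% had a read and 5.58% became members. Of 1789 unprocessed and 221 transcribed unprocessed pseudogenes, 1.79% and 10.9% had a read, and 0.391% and 2.71% became members. In both classes the share seen was therefore higher among the genes already annotated as transcribed. No read fell on the 158 immunoglobulin V or the 34 T cell receptor V pseudogenes annotated.

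The types differed in how their reads were built. Reads on models with 2 or more exons were 0.516% (0.398% to 0.669%) and 0.676% (0.529% to 0.864%) of the reads of processed members. In transcribed processed members the share was 6.54% (5.0% to 8.52%) and 5.34% (3.96% to 7.16%), and in unprocessed members 2.55% (1.35% to 4.77%) and 4.52% (2.97% to 6.81%). Transcribed unprocessed members stood apart at 90.8% (84.7% to 94.7%) and 88.3% (82.0% to 92.5%), and their intervals did not overlap those of the 3 types just given. These intervals treat reads as independent, although this type has only 6 members. Ube2d-ps, with 59 and 48 spliced reads, and 1810014B01Rik, with 32 and 27, held most of its 119 and 128 spliced reads. All 6 have an annotated transcript of 2 or more exons. Over all members the spliced share was 1.97% and 2.42%, against 96.3% and 95.3% for protein_coding genes. All 111 processed members have 1 annotated exon, so an unspliced model is the annotated form there, and the same holds for 5 of the 7 unprocessed members, copies of mitochondrial genes. The other 2 were mostly spliced: Gm21811 in all of its 5 and 15 reads and Gm1818 in 4 of 4 and 6 of 7. The transcribed unprocessed member Scp2-ps2, with 3 annotated exons, had 5 and 10 reads and none spliced. Conversely, 98.6% and 98.3% of the member reads fell on annotated transcripts, against 65.6% and 65.1% for protein_coding genes. A read placed on an annotated single-exon model is listed with the annotated ends, so the tables do not show where such reads began or stopped.

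**Figure D2:**
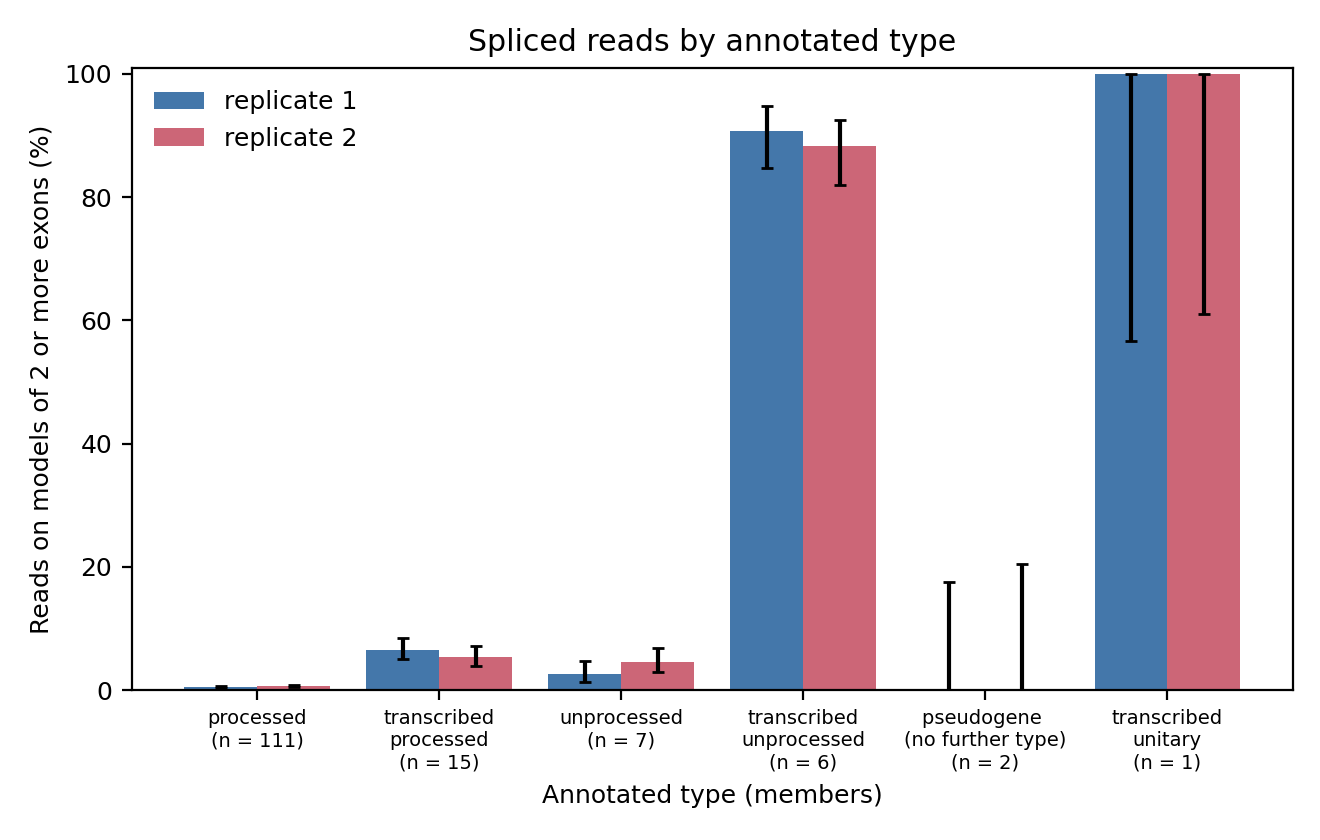
Share of reads on models of 2 or more exons (y axis, percent) by annotated type (x axis, number of members below each name) in replicates 1 and 2, with 95% Wilson intervals. Transcribed unprocessed members reach 90.8% and 88.3%, and processed members 0.516% and 0.676%; the single transcribed unitary member rests on 5 and 6 reads.

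A spliced read was found on 30 members, and on 15 of them such reads were the majority. Spliced here means any model of 2 or more exons, whatever its class or the gap between exons. In Mrpl23-ps1 that gap is 40 bases, and whether such gaps are introns was not tested. Ube2d-ps (chr11:5762129-5784710, plus strand) had 61 and 50 reads, of which 59 and 48 were spliced. Its best match was Ube2d1, a ubiquitin-conjugating enzyme, at 76.8% identity, the lowest among the members, and Ube2d1 had 45 and 22 reads. This pseudogene thus carried more reads than its parent at an identity far below that of most other members. Its most common model was the annotated 3-exon transcript Ube2d-ps-204, with 14 and 15 reads.

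Other members with annotated spliced transcripts had no protein_coding parent by the rule. 1810014B01Rik had 33 and 28 reads, 32 and 27 of them spliced, mostly on the 3-exon transcript 1810014B01Rik-202 (17 and 19 reads). Gm10033 had 8 and 24 reads, 8 and 23 spliced, with 8 and 21 on the 5-exon transcript Gm10033-204. The transcribed processed member 2810025M15Rik had 12 and 16 reads, all on its 3-exon transcript. Ppp1ccb, a copy of the phosphatase subunit gene Ppp1cc, was mixed: 18 and 13 of its 102 and 63 reads lay on a 2-exon transcript with an intron of 864 bases.

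Some members had models of 2 or more exons that are not whole annotated transcripts. The most abundant was a 5-exon model of 2610005L07Rik with 3 and 13 reads, an incomplete match to an annotated transcript. A 4-exon model of Gm31166, a copy of Rpl37 at 84.3% identity, joined known splice sites in a new combination and had 10 and 5 reads. The Gapdh copy Gm13292 carried a 2-exon model with 11 and 3 reads whose exons lie 10623 bases apart. In all, 19 of its 26 reads in replicate 1 and 5 of 11 in replicate 2 lay on models of 2 or more exons. The far exon of the 2-exon model lies within Gm13296 (chr2:11420224-11421220), another annotated Gapdh copy, on the opposite strand. Whether the join of these 2 copies is splicing was not tested. Among the other Gapdh members, Gm12671 alone had spliced reads, 1 and 2.

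The other models below complete the 10 unannotated ones with the most reads. Gm8116, a copy of the carnosine methyltransferase gene Carnmt1, had a 2-exon model with 5 and 9 reads and an intron of 104 bases. Gm21811, whose best match was the cadherin gene Cdh11, had a 5-exon model with 3 and 10 reads. BC023105 on chromosome 18 had a 2-exon model with 1 and 10 reads, and all of its 1 and 13 reads were spliced. Gm19196 (parent Taf1b) had a 5-exon model with 7 and 4 reads, and Gm4118 (parent Psma2, a proteasome subunit) a 2-exon model with 6 and 5. Ube2d-ps had a 5-exon model with 4 and 7 reads, and Gm7389, a copy of the transfer RNA exporter gene Xpot, a 2-exon model with 5 and 5 and an intron of 120 bases. These models rest on 10 to 16 reads each. Those of Gm8116, BC023105, Gm4118 and Gm7389 carry the class Genomic, and that of Gm13292 carries it in part. This class is kept apart from the classes for known and new splice sites, so these models may not be splicing.

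A parent gene was found for 135 of the 142 members, 40 by symbol and 95 by the best sequence match among protein_coding transcripts. They pointed to 109 different parents. The match was tied for 3 members: Gm15801 and Gm8783 matched 2 annotated genes named Ptp4a1 equally well, and Gm10108 matched Cycs and Gm10053. The 7 without a parent were 1810014B01Rik, 2610005L07Rik, Gm10033, 2810025M15Rik, B330016D10Rik, Thap6 and A930035D04Rik. Median identity to the parent was 99.76%, 116 members reached 99%, and 44 were at 100% over the aligned part. Whole-length identity was seen in 40 members, which together held 4338 and 3138 reads. In 70 members the aligned part of the parent was exactly its coding sequence, as in Gm12338 above.

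Identity to the parent and the reading frame were set beside those of pseudogenes with fewer or no reads. Among pseudogenes of the same chromosomes whose parent had at least 100 reads, 0 of the 1173 matched below 90% identity had 10 reads. That search used a faster setting than the search for the members, and left 3786 pseudogenes without a match over 50% of their length, 8 of them with 10 reads. Among those 8 were Ube2d-ps and Gm31166, which the slower search matched below 90%, so the lower groups are incomplete. The share with 10 reads was 0.194% (0.0531% to 0.703%) at 90% to 95% identity, 0.448% (0.152% to 1.31%) at 95% to 98% and 1.79% (0.697% to 4.50%) at 98% to 99%. It was 24.5% (19.1% to 30.8%) from 99% to below 100%, and 46.1% (35.3% to 57.2%) of the 76 that matched at 100%. Reaching the minimum was therefore concentrated in the closest copies, although most pseudogenes at each level of identity stayed under it. The parent minimum of 100 reads left out copies matched to Gapdh, Rpl21, Rpl35a and Rpl17, whose own reads were fewer. With any parent, the share was 14.7% (11.8% to 18.1%) from 99% to below 100%, and 24.3% (18.6% to 31.1%) at 100%. The intervals cover counting error and treat pseudogenes as independent, although copies share parents.

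**Figure D3:**
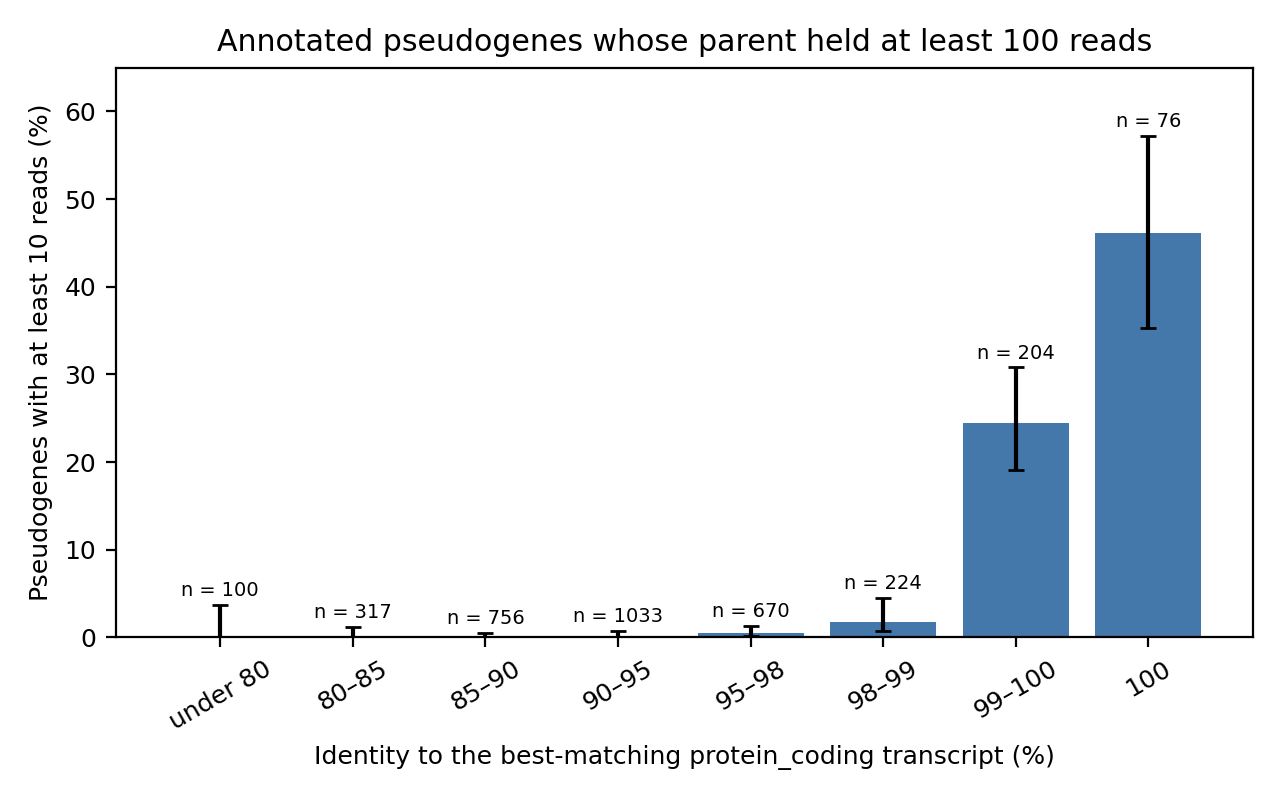
Share of annotated pseudogenes with at least 10 reads (y axis, percent) by identity to the best-matching protein_coding transcript (x axis, percent), for pseudogenes whose parent held at least 100 reads, with 95% Wilson intervals and the number of pseudogenes above each bar. Copies of Gapdh, which held fewer reads than that, are not shown. Pseudogenes without a match in the faster search, among them Ube2d-ps and Gm31166, are also left out. The share is 1.79% at 98% to 99% identity, 24.5% at 99% to below 100% and 46.1% at 100%.

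The longest reading frame from a start to a stop codon reached at least 95% of the parent's coding length in 83 of the 130 members for which it was measured. Within the group at 99% identity or more, such a frame was present in 69.0% (60% to 76.8%) of 113 pseudogenes with 10 reads, 45.9% (37.7% to 54.3%) of 135 with 1 to 9 reads, and 25.3% (21.4% to 29.6%) of 423 without a read. These sets were not matched for identity within the group or for the reads of their parents. An open frame is a property of the sequence, and nothing here shows that a protein is made. Members with a broken frame also carried many reads: the longest frame of Gm13394 was 19.2% of the Gapdh coding length at 277 and 229 reads, and that of Gm10123 was 18.8% of the Ppia coding length at 140 and 88 reads.

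Single-base differences between the reference sequences leaned to 1 kind. Of 28 one-exon members outside chromosome 18 that differed from the parent by 1 substitution at least 20 bases from either end of the matched coding stretch, 26 had a transition and 2 a transversion. G-to-A or C-to-T changes made up 20, of which 10 lay in a CG pair of the parent. The Rpl35a copies Gm10243, Rpl35a-ps2 and Rpl35a-ps3 share the same change, G156A, and each was counted, so the changes are not all independent. By number of differing positions, 44 members had none (4613 and 3435 reads, median 92.0 summed), 30 had 1 (3702 and 3100, median 48.5), 39 had 2 to 5 (3416 and 3742, median 43.0) and 22 had 6 or more (304 and 321, median 19).

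Gapdh had the most reads on copies of any parent. The gene itself (chr6:125161715-125166467, minus strand) had 50 and 49 reads, 44 and 41 of them spliced. Its annotated copies on all chromosomes held 5379 and 3343 reads, 99.1% (98.8% to 99.3%) and 98.6% (98.1% to 98.9%) of the reads of gene and copies together. By its own 99 reads summed, Gapdh ranked below 2921 protein_coding genes; with the 8722 reads of its copies added, 25 protein_coding genes had more. The rank of Gapdh in these tables thus depends on whether reads on copies are added.

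Few of the copies took these reads. The annotation holds 202 Gapdh copies, of which 24 had a read and 9 are members. Of the 33 at 98% identity or more, 18 had a read and 11 had at least 10. Of the 169 below 98%, 6 had a read, with 7 reads in all, and 0 had 10. Gm12671 had 1862 and 552 reads, Gm12033 had 1240 and 888, Gm5559 had 1008 and 807, and Gm7336 had 856 and 774. Gm13394 followed at 277 and 229, then Gm10359 at 46 and 26, Gm13292 at 26 and 11, Gm2606 at 19 and 11 and Gm10481 at 11 and 10. All 9 had fewer reads in replicate 2, and the sum of gene and copies there was 0.620 of the level of replicate 1 in CPM, which is counts scaled to the library total (95% interval 0.594 to 0.647, no test).

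Copies with the same annotated sequence did not hold equal reads. Gm12671 and Gm10359 are both identical to the Gapdh coding sequence over 1002 bases, yet Gm12671 had 34.6% and 16.5% of the reads on copies and Gm10359 had 0.855% and 0.778%. The intervals for Gm12671 were 33.4% to 35.9% and 15.3% to 17.8%. Sequence outside the annotated bases was not searched, so whether these copies differ there was not tested. Gm13292 and Gm2606 also had slightly lower shares in replicate 2, with intervals that overlapped, as did those of Gm10359. The shares of Gm12033 (23.1% and 26.6%), Gm5559 (18.7% and 24.1%), Gm7336 (15.9% and 23.2%) and Gm13394 (5.15% and 6.85%) were higher in replicate 2.

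**Figure D4:**
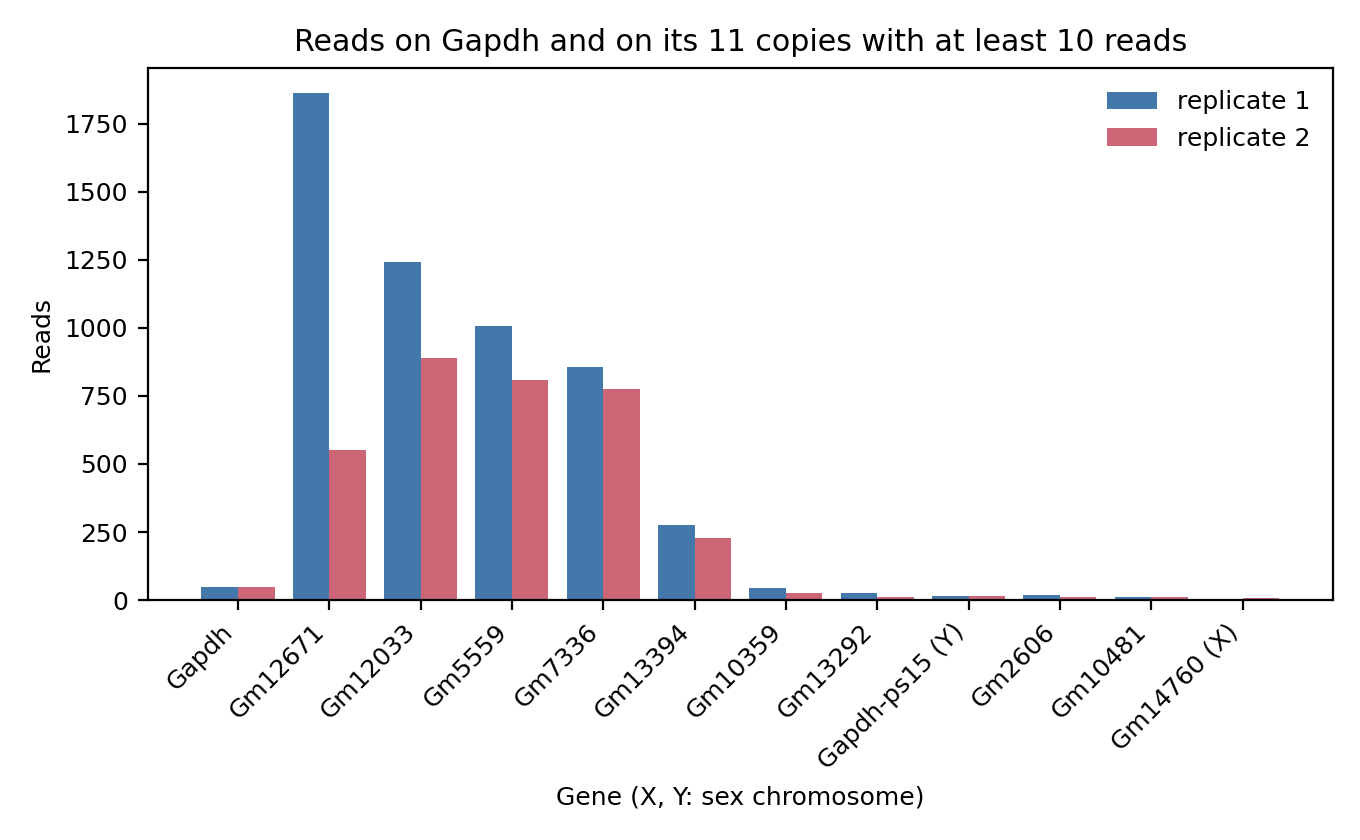
Reads (y axis) on Gapdh and on its 11 annotated copies with at least 10 reads, including those on the X and Y chromosomes, in replicates 1 and 2 (bars). Gapdh itself has 50 and 49 reads, while Gm12671 has 1862 and 552.

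The other glycolytic parent was Pgk1, which encodes phosphoglycerate kinase. Pgk1-rs7 and Gm5537 matched it without a difference over 1255 and 1252 bases. Pgk1 had 373 and 288 reads, Pgk1-rs7 had 176 and 58, and Gm5537 had 108 and 59. The 11 copies of glycolytic genes together had 5629 and 3425 reads, and all 11 had a log2 ratio of replicate 2 over replicate 1 below 0, with a median of -0.73 against -0.01 over all 9341 genes tested. Log2 ratios are of CPM plus a pseudocount of 1 CPM, which understates the change of low genes. Of these 11, 5 passed the gene test described below, all lower in replicate 2, where 7.82% of all genes tested passed and 3.56% were called lower. The 11 are near-identical copies of only 2 parents, Gapdh and Pgk1. Reads may be shared among such copies, so they do not count as independent genes.

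Ribosomal protein genes were the most common parents. Their 54 members pointed to 41 parents and held 2076 and 2264 reads, with a median log2 ratio of 0.08. Gm15500, a transcribed processed copy of Rpl5, led with 207 and 211 reads beside 291 and 288 on Rpl5. Gm14303 had 166 and 195 beside 179 and 246 on Rps29, and Rpl37rt had 157 and 186 beside 122 and 152 on Rpl37. None of these 3 copies passed the gene test described below. In this family 8 copies had more reads than the parent in both libraries.

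Among ribosomal proteins the copies held the largest share of reads for Rpl21, Rpl17 and Rpl35a. Rpl21 had 14 and 25 reads and its copies on all chromosomes 255 and 249, or 94.8% (91.5% to 96.9%) and 90.9% (86.9% to 93.7%) of the sum. Rpl17 had 6 and 5 reads beside 69 and 57 on its copies, and Rpl35a had 25 and 26 beside 143 and 152, or 85.1% and 85.4% on copies. The Rpl21 copies were led by Gm13370 with 162 and 163 reads, and those of Rpl35a by Gm10243 with 107 and 110. The summed level of gene and copies was 1.01 times as high in replicate 2 for Rpl21 (0.854 to 1.20), 1.05 times for Rpl35a (0.852 to 1.30) and 0.820 times for Rpl17 (0.587 to 1.15).

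Chaperones and protein folding genes had 3 members. Gm15459 (chr5:5781615-5783555, minus strand) is a copy of Hspa8, the constitutive heat shock protein of the cytosol, with 5 differing positions over 1941 bases and an intact reading frame. It was the member with the most reads summed, at 1238 and 1596, beside 1349 and 1862 on Hspa8. Its share of the pair was 47.9% (45.9% to 49.8%) and 46.2% (44.5% to 47.8%). The share did not pass the pair test described below (Fisher's exact test, adjusted p = 0.587). Gm10123, a copy of the cyclophilin gene Ppia, had 140 and 88 reads beside 135 and 116, and Hsp25-ps1, a copy of the small heat shock gene Hspb1, had 37 and 29 beside 170 and 149.

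Copies of nuclear respiratory chain genes numbered 8 and held 851 and 1045 reads, with a median log2 ratio of 0.33. Gm12338 had 376 and 488 reads beside 819 and 1007 on Cox7c. Gm10231 (127 and 132 reads) and Gm10175 (93 and 116) both match Atp5g2, a gene for subunit c of ATP synthase, which had 161 and 163. Gm10221 had 83 and 119 beside 480 and 548 on Atp5l, and BC002163 had 74 and 100 beside 130 and 126 on Ndufs5. The copies stayed below their own parent except for the Atp5g2 pair, whose sum exceeded it in both libraries. Mpc1-ps, a copy of the mitochondrial pyruvate carrier gene Mpc1, was likewise close to its parent, with 324 and 303 reads beside 390 and 385.

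Nuclear copies of mitochondrial DNA formed most of the unprocessed class. A row of 4 neighbours on the minus strand of chromosome 1 matches genes of the mitochondrial genome: Gm28437 (chr1:24613189-24613971, mt-Co3), Gm10925 (chr1:24613974-24614651, mt-Atp6), Gm28661 (chr1:24614885-24615565, mt-Co2) and Gm29216 (chr1:24615706-24616197, mt-Co1). The first 3 were identical to the mitochondrial gene over 783, 678 and 681 bases, and Gm29216 had 1 difference in 483. Gm28437 had 103 and 91 reads beside 83 and 106 on mt-Co3. Gm10925 had 97 and 144 beside 115 and 152 on mt-Atp6, and Gm28661 had 50 and 60 beside 39 and 76 on mt-Co2. Gm29216 had 90 and 137 beside 1064 and 1264 on mt-Co1, whose annotated sequence is longer. Gm13340, on chromosome 2, had 4 and 11 reads at 97.6% identity to mt-Co1. Reads on the mitochondrial genome made up 0.173% and 0.243% of the libraries.

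Across the 135 pairs, 19 pseudogenes had more reads than the parent in both libraries and 105 had fewer. The 19 included 5 copies of Gapdh and copies of Rpl21, Rpl17, Rpl35a, Rpl37, Rps19, Rpl31 and Rpl30. Some had parents with almost no reads: Gm21811 had 5 and 15 reads beside 0 and 1 on Cdh11, Gm10259 had 10 and 7 beside 0 and 0 on Gm10184, and BC023105 had 1 and 13 beside 0 and 0 on Gm4841. The matched transcript of Gm10184 itself has 1 exon, and whether Gm10184 is the source of Gm10259 was not tested. Gm15801 had 47 and 80 beside 4 and 4 on the Ptp4a1 gene it was assigned to under the tie. Reads of the other Ptp4a1 gene are not given here, so the place of Gm15801 among the 19 rests on that assignment. Gm7389 had 36 and 40 reads beside 15 and 28 on Xpot, at 95.6% identity. At the other end, Mylf-ps had 6 and 8 reads beside 8685 and 7877 on Myl1, a myosin light chain of fast fibres, and Fabp3-ps1 had 3 and 10 beside 876 and 2113 on the fatty acid binding protein gene Fabp3.

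**Figure D5:**
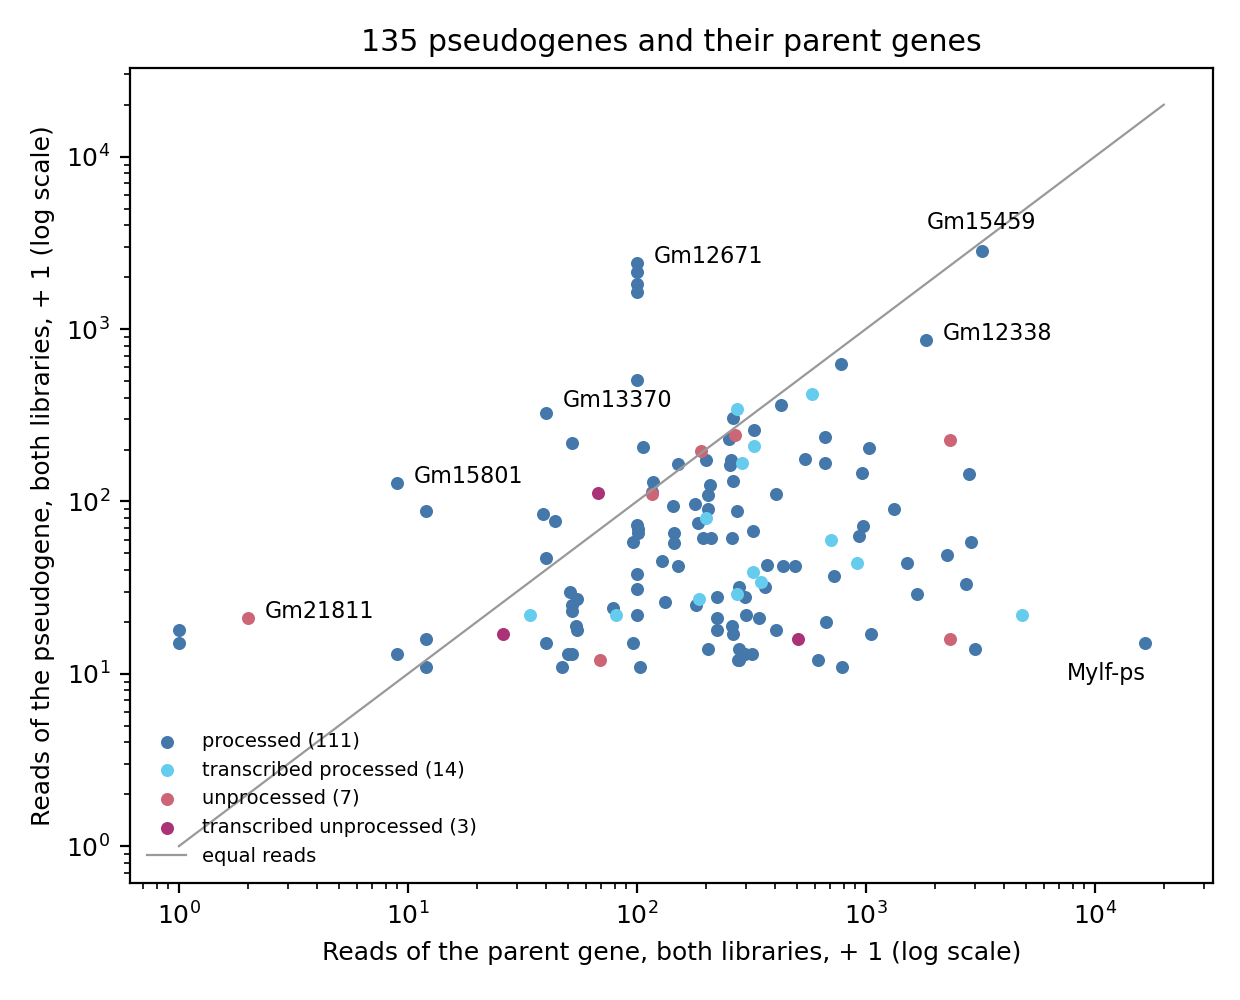
Reads of each of 135 pseudogenes (y axis) against those of its parent gene (x axis), both summed over the libraries with 1 added and on log scales, coloured by annotated type. Points above the line had more reads than the parent: Gm12671 stands above Gapdh, while Mylf-ps lies far below Myl1.

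The position of the members in the genome varied. No other annotated gene overlapped 87 of them, which held 8365 and 6530 reads. Another 25 lay antisense to an intron, 14 antisense to an exon, 12 within an intron on the same strand and 4 on an exon of the same strand. Those 4 were Gm10774 in Usp50, Rpl19-ps11 in Gm27288, Gm7666 in Fyb and Gm4149 with the microRNA gene Mir682, and for them a read could belong to either gene. Whether the counting used strand is not given in the sources used here, so antisense neighbours cannot be told apart from the members by these tables.

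The gene test compared each gene's reads with all other reads of its library in Fisher's exact test, two-sided, with Benjamini-Hochberg adjustment over 9341 genes with at least 10 reads summed and a threshold of 0.05. Of these genes 7.82% were called, 4.25% higher and 3.56% lower in replicate 2. Of the 142 members 16 were called, or 11.3%, 7 higher and 9 lower in replicate 2; whether that share differs from the background was not tested. The median log2 ratio was 0.08 over the members, with 76 above 0 and 66 below, against -0.01 over all genes tested. A log2 ratio beyond 1 in either direction was seen for 19 members. The share of all genes tested with such a ratio is not given here, so this count is a description only. In an exact test by edgeR that allows a dispersion of 0.01 between libraries, 4 of the 16 remained: Gm12671, Pgk1-rs7, Gm10774 and Gm6563.

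Gm12671 fell from 1862 to 552 reads, to 0.294 of its CPM (0.267 to 0.323; Fisher's exact test, adjusted p = 1.96e-164). Gm12033 and Gm5559 fell to 0.711 (0.652 to 0.774) and 0.794 (0.724 to 0.871). Pgk1-rs7 fell to 0.327 (0.243 to 0.439; adjusted p = 3.40e-13 by the same exact test) and Gm5537 to 0.542 (0.395 to 0.743). All 5 are copies of Gapdh or Pgk1, and the steepest fall was that of Gm12671. The Gapdh copy Gm7336, with 856 and 774 reads, did not pass (fold 0.897, 0.814 to 0.989).

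Gm10774 went from 95 reads to 14, a fold of 0.146 (0.0840 to 0.254; Fisher's exact test, adjusted p = 3.37e-14). Its parent Polr2l moved the other way in number, from 173 to 230 reads. Gm6563 went from 2 reads to 54, a fold of 26.8 (7.19 to 99.7; adjusted p = 4.59e-12 by the same exact test), while Sarnp had 63 and 82. These members have 1 substitution each relative to their parent, printed above, and both were present mainly in a single library.

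The remaining calls were smaller or rested on few reads. Higher in replicate 2 were Gm15459 (fold 1.28, 1.19 to 1.38), Gm12338 (1.29, 1.13 to 1.47), Gm10925 (1.47, 1.14 to 1.90) and Gm29216 (1.51, 1.16 to 1.97). Rps4x-ps, with 2 and 15 reads, and BC023105, with 1 and 13, were higher as well. Lower were Gm10123 (fold 0.624, 0.478 to 0.814), Ppp1ccb (0.613, 0.448 to 0.838) and Eif4a-ps4 (0.520, 0.340 to 0.796), a copy of the translation helicase gene Eif4a1 that had 61 and 32 reads. By type, 13 of the 16 were processed, 1 transcribed processed and 2 unprocessed. The 2 unprocessed ones, Gm10925 and Gm29216, lost their call when mitochondrial and spike-in reads were left out of the library totals (adjusted p = 0.0646 and 0.0532 by Fisher's exact test). Without the filter on low reads, these 2, Ppp1ccb, Eif4a-ps4 and Rps4x-ps did not pass (adjusted p = 0.0543 to 0.0676 by the same exact test).

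Whether a pseudogene and its parent kept their proportion was tested for 130 pairs with at least 10 reads each. Fisher's exact test was again used, two-sided and with adjustment over these pairs; 4 differed between the libraries, or 3.08%, and 10 had an unadjusted p below 0.05. The share of Gm12671 in its pair with Gapdh went from 97.4% (96.6% to 98%) to 91.8% (89.4% to 93.8%). That of Pgk1-rs7 with Pgk1 went from 32.1% to 16.8%, and that of Gm10774 with Polr2l from 35.4% (30% to 41.3%) to 5.74% (3.45% to 9.40%). Of the 4, Gm6563 alone took a larger share of its pair in replicate 2, with Sarnp, at 3.08% (0.848% to 10.5%) and 39.7% (31.9% to 48.1%). The other 126 pairs did not pass, which does not show that their proportions were equal.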

How the data were processed

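The authors deposited 1 table per library, which holds unnormalized counts of long reads by transcript model. Per the deposited notes the build is mm10 and the annotation GENCODE M21. The annotation files name TALON, a program that sorts long reads into known and new models. Exon coordinates and numbers, model lengths and annotated gene types are other deposited values. Of the aligner, versions, filters and platform nothing is given in the sources used here.

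A gene's reads were its counts over all models, and shares used the total of the library. Gene types and positions of M21 were used, since deposited gene spans were extended by reads. Parents were found by symbol (the stem before -ps or -rs), otherwise as the protein_coding gene whose transcript best matched with blastn 2.17.0 over at least 50% of the member's length. M21 transcript sequences served in place of a genome. Ties went to the gene with more exons, a rule chosen after seeing the data, as were the comparisons by identity, reading frame and copy share. Those used the best match of every annotated pseudogene by the faster megablast setting. Intervals are 95% Wilson intervals, which for folds were converted from the split of reads, and cover counting error only. Fisher's exact tests used scipy 1.17.1, and edgeR 4.0.16 gave an alternative. The gene test was also run on simulated data with counting error only, which cannot check it against variation between animals.

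Named were members with at least 100 reads, the 5 with the most reads of each type, called members, those with a parent and at least 30 reads, and 10 unannotated spliced models. Not all are printed. Members, lists and rules were chosen with earlier results of these data known.

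Parent lists without a member were cytoskeleton and iron storage. Translation factor parents had 2 members (68 and 35 reads), chromatin 1 (24 and 17), ubiquitin 1 (10 and 11), other parents 50 (1618 and 1645). Marker reads not given in the report were 8844 and 7883 for adipocytes, 283 and 186 for endothelial cells, 145 and 169 for red blood cells and 141 and 89 for macrophages.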

Additional observations from a re-analysis of the deposited data

Results flagged for a closer look

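Pseudogenes of the sex chromosomes lay outside the members, and 2 results there are given for their values. Both cover genes listed for holding at least 10 reads summed, so their counts carry no test. Gapdh-ps15, annotated on the Y chromosome, had 32 reads summed, 17 and 15, in mice labelled female; it matched Gapdh at 99.50% identity. On the X chromosome, 15 pseudogenes with at least 10 reads held 2085 reads summed, 967 and 1118. They were led by Gm14539, at 100% identity to Usmg5 (240 and 307 reads), Vcp-rs, a copy of the ATPase gene Vcp (217 and 271), and Gm8172, a copy of Rps6 (156 and 165). Gm8424 had 0 and 41 reads and no parent by the rule.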

How the results depend on the processing

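The number of members was 142 at the minimum of 10 reads, 204 at 5, 107 at 20 and 130 with annotated transcripts alone. Taking 5 reads in a single library gave 141 to 155. The share of reads on members, 0.843%, was 1.28% when annotated transcripts alone were counted, 0.739% without Gm15459 and 0.524% without the copies of Gapdh, an alternative chosen after seeing the data; in the last case replicate 2 was the higher (0.503% and 0.545%). Single libraries gave 0.788% to 0.899%. Of the 16 calls, spliced models alone kept 1 of 17 members tested, as fewer members could be tested, and edgeR with a dispersion of 0.01 kept 4, with 173 of 9341 genes called in place of 730. The other 5 settings called 11 to 16 members. Over 92 named members, no ratio changed direction in 279 comparisons with other settings. Most of these changed only the pseudocount, which cannot reverse a ratio, so that result carries no weight. The other settings were applied to called members alone, and 22 of those comparisons lost the call. The pair test called 4 under both settings, and 20 of the 30 members with spliced reads had at least 5. No paired analysis was possible because the 2 libraries form 1 group.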
